A study of Rattus norvegicus with 10 samples.

Results

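The genes described here are the corticosteroid receptors of the brain and a set of genes known to be switched on by them. They were chosen by name: every probe set that the platform annotation assigns to a single gene among Nr3c1, Nr3c2, Fkbp5, Sgk1, Tsc22d3, Nfkbia, Mt1, Mt2A, Klf9 and Ddit4. That gave 14 of 31042 probe sets and all 10 genes. A probe set is the group of short oligonucleotides on an Affymetrix array that together report a transcript. A further probe set that names several genes, Mt1 among them, was not used. Each brain was cut at the midline and RNA of its right side was measured in male Wistar rats aged 7 weeks, with 1 array per rat. In 5 rats (DMHF), air led through a flask with 5 mL of DMHF, a dimethyl hydroxy furanone with a strawberry- and caramel-like aroma, was inhaled for 5 min. In the other 5 rats (control), the flask held 5 mL of distilled water. All 10 rats breathed vapor from the flask, were left for 10 min and were then killed before the dark period, so no rat was left unhandled. The labels call the arrays biological replicates.

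Corticosterone, the main glucocorticoid of the rat, enters brain cells and binds 2 related receptors that act as transcription factors. The mineralocorticoid receptor, encoded by Nr3c2, binds the hormone tightly and is largely occupied at rest, and the glucocorticoid receptor, encoded by Nr3c1, is filled mainly during stress and at the daily peak of the hormone. In a nocturnal animal that peak comes near the start of the dark period. The receptors bind response elements in DNA and raise transcripts of genes such as Fkbp5, Sgk1, Tsc22d3 and Klf9, several of which also respond to other signals. Metallothioneins bind zinc and copper and respond to metals as well as to glucocorticoids.

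The deposited values are on a log2 scale, taken as such from their range of 5.25 to 14.22. The deposited values differed very little between rats: the median within-group SD over all probe sets was 2.17 millionths of a log2 unit. How far this spread reflects the rats or the unstated processing was not tested. Values of single rats are therefore given as deviations from the mean of the control rats in millionths of a log2 unit, and differences also as multiples of that probe set's SD within groups. They cannot be turned into fold changes of RNA, and sizes in millionths are not comparable between genes. In tissue with many cell types, fewer cells of a type and less RNA per cell cannot be told apart. Array medians differed by at most 15.2 millionths and no arrays were identical. The markers of neurons (levels 9.06 to 13.34) and of oligodendrocytes (10.14 to 13.79) lay above the array median of 7.24 in every measured gene of these lists. With 5 arrays a group, precision is low throughout.

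No member passed the test between DMHF and control rats, and all 10 genes stood nominally lower in DMHF on their brightest probe set. Where a gene had several probe sets, the brightest was the one with the greatest mean level. Of the 14 probe sets, 0 passed an adjusted p of 0.05 by limma, against 0.0% of all probe sets, and 0 had an unadjusted p under 0.05, against 5.48% of all. The adjusted p values ran from 0.936 to 0.9996. The difference was below 0 for 12 of the 14 probe sets, where 46.8% of all probe sets had a difference below 0, and for 10 of 10 genes, where the share over all 14217 genes was 47.0%. The median difference of the 10 genes was -0.74 within-group SD, against 0.05 over all genes. For 8 of the 10 genes the difference was more than 0.5 SD below 0, against 20.2% of all genes. The groups overlapped in every one of the 14 probe sets, while all DMHF rats lay below all control rats in 0.332% and above them in 0.535% of all probe sets. The 95% interval of the difference included 0 in all 14, with lower bounds from -2.82 to -0.36 SD and upper bounds from 0.26 to 2.37 SD. Differences of 1 SD in either direction lay inside the interval for the brightest probe sets of Nr3c1 (-1.50 to 1.42 SD) and Fkbp5 (-1.51 to 1.22 SD). For the brightest probe sets of the other genes, 1 SD below 0 lay inside the interval and 1 SD above 0 did not. The members are a described set, chosen with earlier results of these data known, and vary together in part, so their counts are not independent evidence of a direction.

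**Figure D1:**
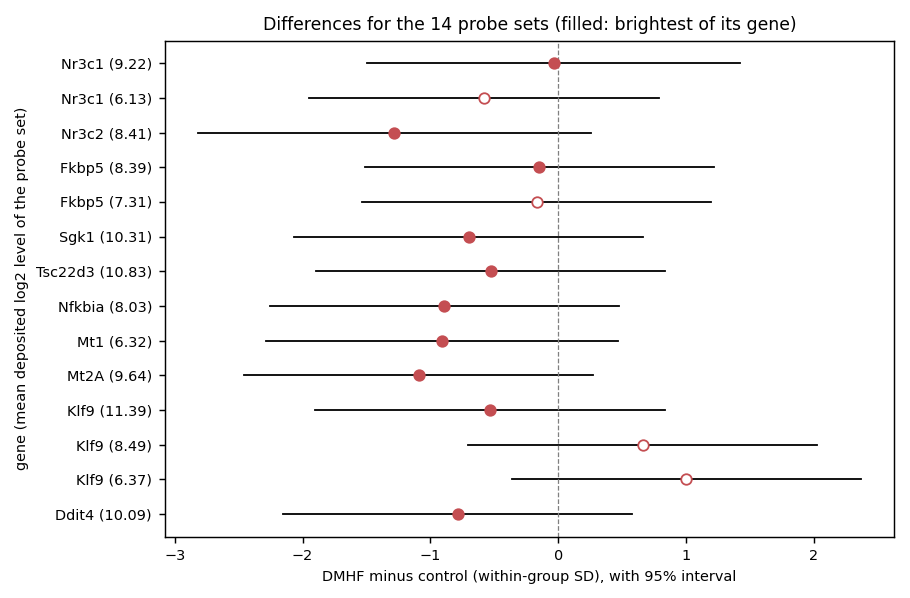
DMHF minus control for each of the 14 probe sets, in units of the within-group SD of that probe set, with the 95% interval from limma as a line. Filled points are the brightest probe set of each gene and open points the others, and the mean deposited log2 level is given in brackets. All 14 intervals cross 0, and the open points of Klf9 lie at 0.66 and 1.002 SD on the other side of 0 from the filled one.

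The mineralocorticoid receptor transcript Nr3c2 had the smallest p of all members on the values as deposited, but not with arrays set to a common median (unadjusted limma p of 0.732, where Mt2A had 0.0823), and after quantile normalization its difference was 0. Nr3c2 stood at -0.101, -0.732, -0.874, -1.20 and -1.45 millionths in DMHF replicates 1 to 5, against 0.0990, 1.03, -0.111, 0.212 and -1.23 in control replicates 1 to 5. All 5 DMHF rats lay below the control mean, and control replicate 5 lay among the lowest DMHF rats. The difference was -0.871 millionths (SE 0.461), or -1.28 within-group SD, with a limma adjusted p of 0.936. An exact two-sided permutation test over all assignments of the 10 rats gave p = 0.103.

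The glucocorticoid receptor transcript Nr3c1 was the member closest to no difference. Its brighter probe set stood at 1.33, -0.325, -0.577, -0.672 and 0.0692 millionths in DMHF rats, against -0.983, 0.580, 1.29, -1.13 and 0.241 in control rats. Rats of both groups lay on both sides of the control mean. The difference was -0.0348 millionths (SE 0.600), with a 95% interval from -1.50 to 1.42 SD and a limma adjusted p of 0.9996, and its sign changed with single rats left out. The dimmer Nr3c1 probe set, at a mean level of 6.13, differed by -2.86 millionths (SE 2.98), or -0.58 SD. Its SD was 2.81 among DMHF rats and 6.39 among control rats.

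Fkbp5 encodes a co-chaperone that binds the glucocorticoid receptor complex and lowers its affinity for the hormone, and it is itself induced by the receptor, which closes a feedback loop. Its brighter probe set stood at -8.02, 2.78, 6.01, -19.8 and 5.65 millionths in DMHF rats, against -17.7, -5.77, -21.1, 35.6 and 9.02 in control rats. The DMHF values lay inside the control range, which control replicate 4 extended upward. The difference was -2.68 millionths (SE 10.9), or -0.15 SD, with a limma adjusted p of 0.9996. Without control replicate 4 the difference was 6.23 millionths, after quantile normalization it was -10.006, and with array weights it was -4.91. The dimmer probe set of Fkbp5 differed by -4.48 millionths (SE 15.9), or -0.17 SD.

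Tsc22d3 encodes GILZ, a leucine zipper protein through which glucocorticoids dampen inflammatory signalling. It stood at -21.6, -1.71, -4.80, -9.34 and 0.194 millionths in DMHF rats, against -17.6, -14.2, -0.556, 27.2 and 5.11 in control rats. As for Fkbp5, control replicate 4 was the highest rat. The difference was -7.44 millionths (SE 8.45), or -0.53 SD, and it was -0.65 millionths without control replicate 4, -3.91 without DMHF replicate 1 and -11.8 without control replicate 1. The limma adjusted p was 0.9996.

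Nfkbia encodes the inhibitor that holds NF-kappa-B in the cytoplasm, and it is induced by glucocorticoids as well as by NF-kappa-B itself. It stood at -278, -117, 76.7, -234 and -181 millionths in DMHF rats, against -208, -172, 238, 76.3 and 66.0 in control rats. DMHF replicate 3 stood with the high control rats, and control replicates 1 and 2 stood with the low DMHF rats. The difference was -147 millionths (SE 98.9), or -0.89 SD, with an exact permutation p of 0.198 and a limma adjusted p of 0.969. Without control replicate 3 it was -87.1 millionths.

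Sgk1 encodes a serum- and glucocorticoid-regulated kinase that acts on ion channels and transporters, and its transcript is a target of both receptors. It stood at -1011, -431, 1053, -1506 and -1555 millionths in DMHF rats, against -1339, -342, 845, 702 and 134 in control rats. The highest of all rats was DMHF replicate 3, and the lowest were DMHF replicates 4 and 5. The difference was -690 millionths (SE 592), or -0.70 SD, with an exact permutation p of 0.302 and a limma adjusted p of 0.994. Without DMHF replicate 3 the difference was -1126 millionths, and after quantile normalization it was -226.

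Klf9 encodes a zinc finger transcription factor induced by corticosterone and by thyroid hormone. Its brightest probe set stood at -5.92, -0.192, 3.68, -5.01 and -5.20 millionths in DMHF rats, against -6.70, -4.22, 2.42, 5.77 and 2.74 in control rats. The order of the rats was much as for Sgk1, with DMHF replicate 3 high and control replicate 1 low. The difference was -2.53 millionths (SE 2.85), or -0.54 SD. With single rats left out it ran from -4.21 millionths (without control replicate 1) to -1.09 (without control replicate 4), with -4.08 without DMHF replicate 3 and -1.68 without DMHF replicate 1. The other Klf9 probe sets went the other way, with differences of 6.41 millionths (SE 5.83) and 6.04 millionths (SE 3.63), or 0.66 and 1.002 SD, so the gene has no single direction here. The limma adjusted p was 0.950 or more for all 3 probe sets.

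Ddit4 encodes REDD1, an inhibitor of the growth-promoting kinase complex mTORC1 that is induced by glucocorticoids, low oxygen and energy stress. It stood at -21.6, -24.7, 18.4, -30.0 and -17.6 millionths in DMHF rats, against -25.2, -15.3, 17.4, 8.95 and 14.2 in control rats. DMHF replicate 3 was the highest of all 10 rats, while the other 4 DMHF rats lay below control replicate 2. The difference was -15.1 millionths (SE 11.5), or -0.79 SD, with an exact permutation p of 0.278 and a limma adjusted p of 0.983. Without DMHF replicate 3 it was -23.4 millionths.

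The metallothioneins Mt2A and Mt1 had the smallest p after Nr3c2 among the brightest probe sets on the values as deposited. With a common array median Mt2A came first and Mt1 (unadjusted limma p of 0.431) came after Nfkbia, Sgk1 and Ddit4. Mt2A stood at -103, -25.0, -48.5, -44.4 and -45.5 millionths in DMHF rats, against 29.1, -48.0, -80.6, 72.6 and 26.9 in control rats. All 5 DMHF rats lay below the control mean, but control replicates 2 and 3 lay among them. The difference was -53.4 millionths (SE 29.4), or -1.09 SD, with an exact permutation p of 0.119 and a limma adjusted p of 0.942, and it was -35.2 millionths without control replicate 4 and -33.2 after quantile normalization. Mt1 stood at -4.13, -4.54, -3.19, -3.19 and 1.80 millionths in DMHF rats, against 2.29, 0.644, -5.12, -0.815 and 3.004 in control rats. In Mt1, DMHF replicate 5 stood apart from the other DMHF rats, and control replicate 3 was the lowest of all. The difference was -2.65 millionths (SE 1.76), or -0.91 SD, with an exact permutation p of 0.183, but after quantile normalization it was 40.5 millionths, in the other direction. The Mt1 probe set had a mean level of 6.32, in the lowest 18.1% of probe sets, and the rat genome holds Mt1 pseudogenes that such a probe set may also detect.

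**Figure D2:**
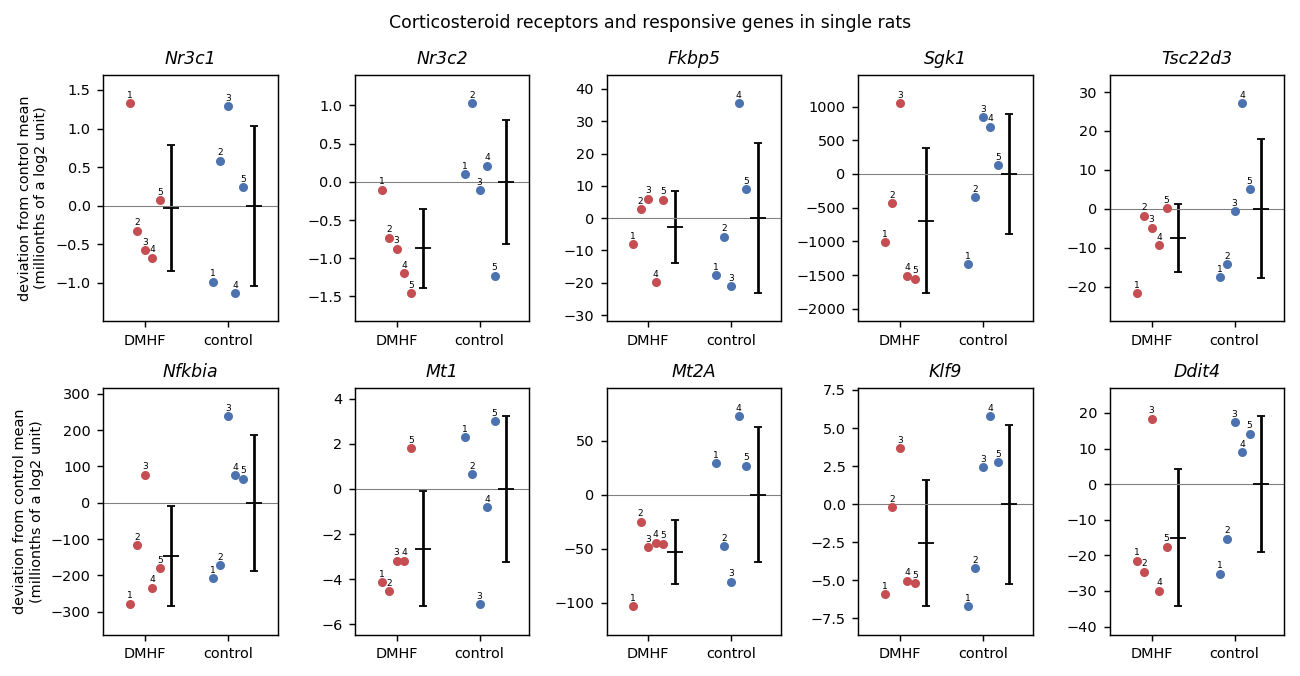
Brightest probe set of each of the 10 genes, one panel per gene, with each point a rat (numbered by replicate) at its deviation from the control mean in millionths of a log2 unit, DMHF left and control right. Bars are the group mean with SD (n = 5 each). The groups overlap in every panel, and DMHF replicate 3 is the highest of the DMHF rats in Fkbp5, Sgk1, Nfkbia, Klf9 and Ddit4.

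The upstream regions of the metallothionein genes are shown because these members share a known promoter element. Start windows from RefSeq (rat assembly GRCr8) were found for 9 of the 10 genes, 14 windows in all, and not for Nr3c2. The 250 bases before the start are given 5′ to 3′ on the gene's own strand, which is the minus strand for both, with matches to the metal response element in capitals. The letters searched were TGCACNC and TGCGCNC on both strands, with overlapping matches counted as 1.
Mt1 (chr19:10832976-10833225): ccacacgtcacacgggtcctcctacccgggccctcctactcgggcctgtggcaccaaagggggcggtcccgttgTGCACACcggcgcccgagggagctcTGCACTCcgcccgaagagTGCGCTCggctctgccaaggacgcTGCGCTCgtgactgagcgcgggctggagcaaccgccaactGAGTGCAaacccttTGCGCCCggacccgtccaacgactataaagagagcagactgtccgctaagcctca
Mt2A (chr19:10838709-10838958): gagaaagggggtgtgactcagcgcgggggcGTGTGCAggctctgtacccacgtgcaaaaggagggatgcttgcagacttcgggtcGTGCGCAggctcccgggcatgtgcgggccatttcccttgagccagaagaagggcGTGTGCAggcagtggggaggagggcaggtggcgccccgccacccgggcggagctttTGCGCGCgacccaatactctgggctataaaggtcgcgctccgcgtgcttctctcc

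Mt1 held 6 matches and Mt2A held 4, and the match nearest the start began 55 bases before it in both. Of all 33469 windows of that length, 20.6% held at least 1 match, 0.128% held 4 or more and 0.0239% held 6 or more. Of the other members, Nfkbia, Ddit4 and one of the 2 Nr3c1 windows held 1 match each. Both metallothionein windows also held the letters TATAAA on the sense strand, as did 8.06% of all windows. The glucocorticoid receptor half-site, AGAACA on either strand, was in none of the 14 windows and in 17.5% of all windows. The full element, this half-site followed after 3 bases by its reverse complement, was in none of the 14 and in 0.0120% of all. These are descriptions of the letters in this window only.

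Several responsive genes varied together from rat to rat, apart from the difference between the groups. Each gene was taken by its brightest probe set only, and each value was set against the mean of its own group. The deviations of the 10 rats were then correlated for all 45 pairs of the 10 genes. An exact two-sided permutation test within groups (14400 pairings) was used, with Benjamini-Hochberg adjustment over the 45 pairs. By Pearson's r, 6 pairs passed an adjusted p of 0.05, and by Spearman's rho 0 passed, with a smallest adjusted p of 0.0773 and 8 pairs at an unadjusted p under 0.05. With single rats left out the number ran from 0 to 7, and it was 0 without DMHF replicate 3 or 4 or control replicate 1, 2, 4 or 5. Of these 6 pairs, 5 joined Sgk1, Nfkbia, Klf9 and Ddit4, and the other was Nr3c1 with Mt2A. The permutation took rats of different groups as unpaired. The labels do not say whether replicate numbers pair the rats. Over all probe sets, deviations of same-numbered rats correlated at 0.0288 to 0.273. If the numbers do pair the rats, these p values do not account for it.

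Sgk1 and Nfkbia correlated at r = 0.881 (exact permutation p = 0.00160, adjusted p = 0.0350, rho = 0.867, exact permutation p of rho = 0.00299, n = 10). Without DMHF replicate 3 and control replicate 1, the rats farthest from the Sgk1 median, r was 0.789. Of 14216 other genes, 0.169% correlated at least as strongly with Sgk1 and 0.577% with Nfkbia. Nfkbia and Ddit4 correlated at r = 0.915 (exact permutation p = 0.00368, adjusted p = 0.0350, rho = 0.915, exact permutation p of rho = 0.00604), and at 0.855 without control replicate 3 and DMHF replicate 3. Sgk1 and Ddit4 correlated at r = 0.889 (exact permutation p = 0.00556, adjusted p = 0.0417, rho = 0.794, exact permutation p of rho = 0.0153), and at 0.713 without the 2 rats farthest out. With any 1 rat left out, r stayed between 0.785 and 0.950 for these 3 pairs.

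The brightest Klf9 probe set followed the same rats, but its deviations fell into 5 rats at or below -2.48 and 5 at or above 2.34 millionths. A gap of 4.82 lay between them, and whether it marks separate groups of rats was not tested. The 5 higher rats were DMHF replicates 2 and 3 and control replicates 3, 4 and 5. A pooled correlation is therefore not given for Klf9, and none was computed within the sides, which hold 5 rats each. On the brightest probe sets, all 10 rats lay on the same side of their group mean in Sgk1, Nfkbia and Klf9, and 9 of 10 also in Ddit4. The dimmer Klf9 probe sets did not keep this order. In the dimmest, DMHF replicate 3, the highest DMHF rat in Sgk1, was the lowest DMHF rat at -2.52 millionths. In the other, DMHF replicate 3 was the highest at 18.8, but DMHF replicate 4 stood at 11.7, above the DMHF mean of 6.41. Of the 6 passing pairs, 4 did not include Klf9, with p values adjusted over all 45 pairs. The adjustment was not repeated without the Klf9 pairs.

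**Figure D3:**
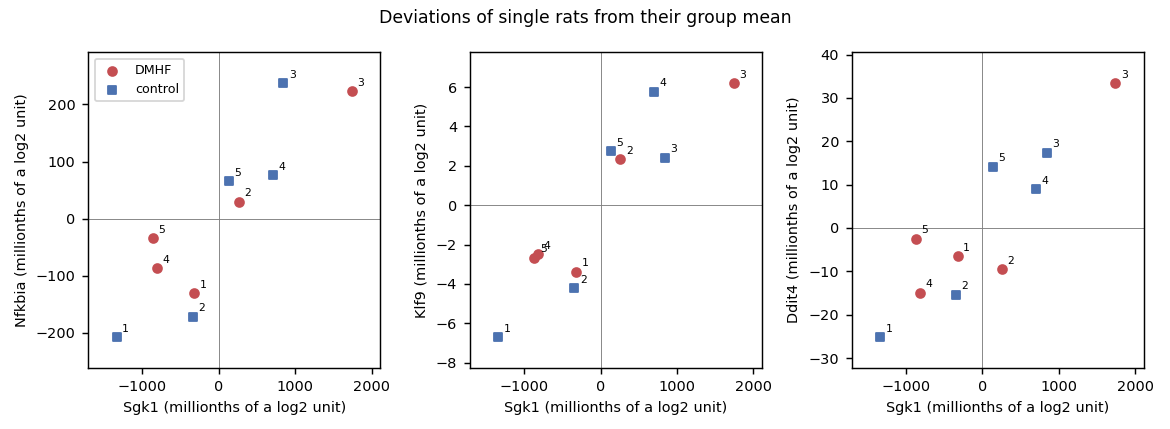
Deviation of each rat from its own group mean for Sgk1 (x axis) and for Nfkbia, Klf9 and Ddit4 (y axes), all in millionths of a log2 unit. Each gene is shown by its brightest probe set. DMHF rats are circles and control rats are squares, numbered by replicate. Pearson r is 0.881 for Nfkbia and 0.889 for Ddit4, in which DMHF replicate 2 lies above its group mean in Sgk1 and below it in Ddit4, and the Klf9 panel shows the gap between 5 lower and 5 higher rats.

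The remaining passing pair was Nr3c1 with Mt2A, which ran in opposite directions (r = -0.878, exact permutation p = 0.00285, adjusted p = 0.0350, rho = -0.830, exact permutation p of rho = 0.0144). Without DMHF replicate 1 and control replicate 3 r was -0.732. This pair rests on the brighter Nr3c1 probe set, and no correlation was computed for the dimmer one. Fkbp5 and Tsc22d3, both classical receptor targets, correlated at r = 0.806 without passing (exact permutation p = 0.0202, adjusted p = 0.103), and between 0.524 and 0.900 with single rats left out. Mt1 and Mt2A correlated at r = 0.456 (exact permutation p = 0.257, adjusted p = 0.608), which did not pass, although these genes lie close together on chromosome 19. Mt2A showed r of -0.0477 with Sgk1, -0.0339 with Nfkbia and -0.0405 with Ddit4. Nr3c1 and Nr3c2 correlated at r = 0.193. Genes measured on the same arrays share any property of the array, and its part in these correlations was not tested.

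**Figure D4:**
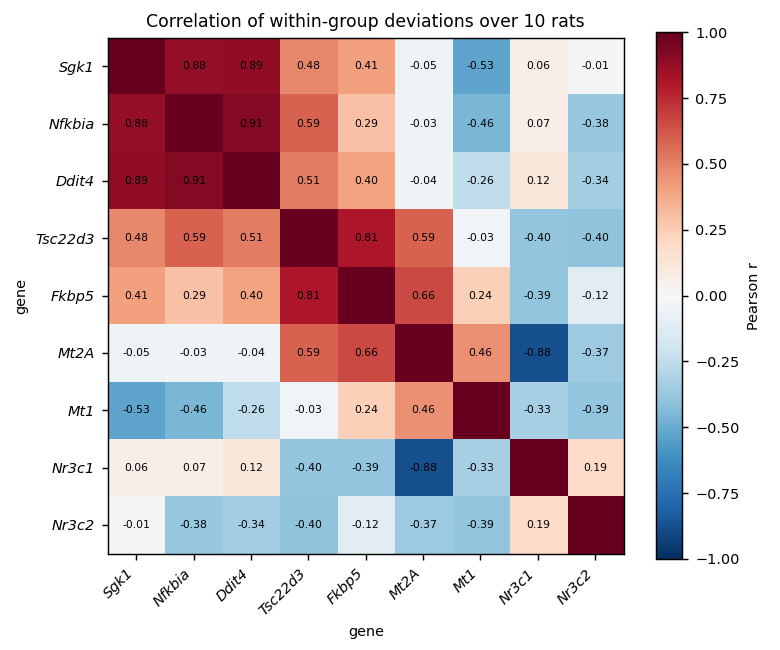
Pearson r of within-group deviations over 10 rats for the 36 pairs of 9 genes by their brightest probe sets, red positive and blue negative. Klf9 is left out because of the gap between its lower and higher rats. Sgk1, Nfkbia and Ddit4 form a block with r from 0.881 to 0.915, and Nr3c1 with Mt2A is the most negative cell at -0.878.

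Single rats differed in how many responsive genes stood above the 10-rat mean of that gene. In DMHF rats the number out of 8 was 0, 4, 5, 0 and 3 for replicates 1 to 5, and in control rats it was 2, 2, 5, 8 and 8. Their mean standardised level ran from -0.98 to 0.50 SD in DMHF rats and from -0.43 to 1.35 SD in control rats. The lowest were DMHF replicates 1 and 4 and the highest were control replicates 4 and 5. The SD among DMHF rats was smaller than among control rats for 8 of the 10 genes, against 45.6% of all genes, and this was not tested. The genes with the pattern most like the mean of the 8 responsive members, by Pearson r of within-group deviations over the 10 rats among 13973 other genes, were Elfn2 (r = 0.960), Pbx4 (0.932), Phactr3 (0.927), Scp2d1 (0.921) and Tff2 (0.921). Those most like Nr3c2 were Zfp764l1 (0.962), Vamp4 (0.929) and Arl15 (0.922). Both lists hold only the highest r of a search over 13973 genes in 10 rats. Pbx4 (mean level 7.10), Scp2d1 (5.87), Tff2 (6.15) and Zfp764l1 (7.08) lay below the array median of 7.24. Whether these genes are tied to the members was not tested.

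**Figure D5:**
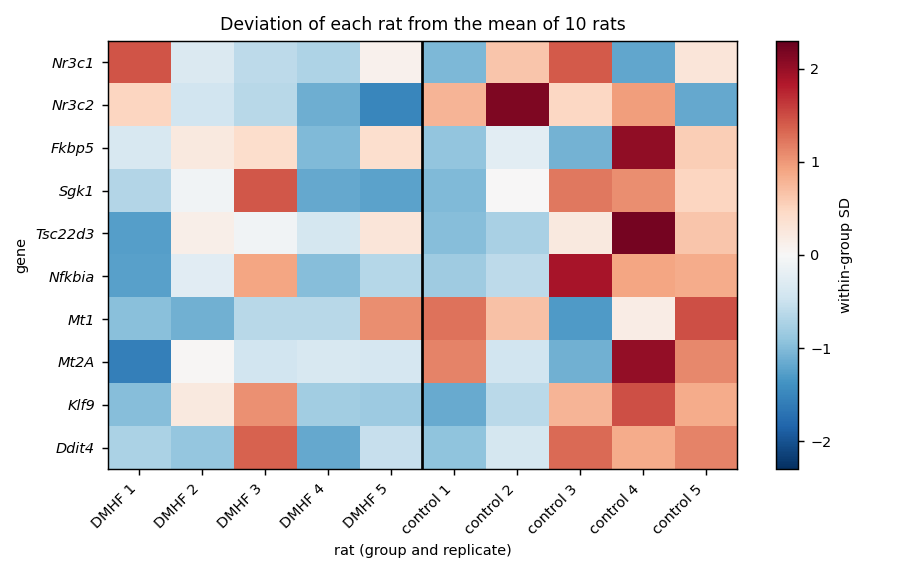
Level of each of the 10 genes (rows) in each rat (columns, DMHF left and control right of the line), as deviation from the mean of all 10 rats in units of the within-group SD. DMHF replicates 1 and 4 are below the mean in all 8 responsive genes, and control replicates 4 and 5 are above it in all 8.

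Other genes of the pathway gave no call either, with 0 members past the test in each of 10 lists, where 0.0% of all probe sets passed. For the direction counts of these lists, 47.0% of all 14217 genes had a difference below 0. The lists are short, and their counts were not tested. Of 22 measured further glucocorticoid-responsive genes, 15 were nominally lower and 7 higher, with a median of -0.14 SD against 0.05 over all genes. The smallest p values there belonged to Angptl4, a lipoprotein lipase inhibitor (-3.14 millionths, SE 0.585), Cebpb, a transcription factor (-5.05, SE 3.70), and Sdc4, a cell surface proteoglycan (2.40, SE 1.80). Angptl4 differed by -3.46 within-group SD with a limma adjusted p of 0.698. The chaperones that hold the receptors ready to bind hormone were nominally higher in 9 of 12 genes, with a median of 0.48 SD. Among them were Hspa1a, an inducible heat shock protein (11.7, SE 3.80), and the HSP90 co-chaperone Cdc37 (0.724, SE 0.344), with limma adjusted p values of 0.843 and 0.931. Of 9 receptor coregulators 7 were nominally lower, with the coactivator Ncoa1 at -123 millionths (SE 83.2).

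Genes that supply corticosteroids or drive the stress axis were nominally higher in 4 of 12 cases and lower in 8. Star, the cholesterol carrier of mitochondria, differed by 10.8 millionths (SE 2.01, limma adjusted p = 0.698) and Cyp11a1, which makes pregnenolone from cholesterol, by 3.51 (SE 1.48), both at levels near 6.3. All 3 measured sex steroid receptors were nominally higher, but their levels of 5.97 to 7.19 lay below the array median of 7.24. Pgr, the progesterone receptor, differed by 2.54 millionths (SE 1.04) and Esr1, an estrogen receptor, by 0.291 (SE 0.219). Esr1 differed by 3.40 within-group SD, and its moderated SE was large against its own spread. The kinases related to Sgk1 and their targets were nominally higher in 8 of 10 genes. Leading by p were the epithelial sodium channel subunits Scnn1b at 8.51 (SE 3.72), Scnn1a at 0.586 (SE 0.353) and Scnn1g at 0.830 (SE 0.610). These subunits also had levels below the array median, from 6.66 to 6.89. None of these passed the test.

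Zinc and copper genes were split, with 6 of 11 nominally higher, and the zinc importer Slc39a14 had the smallest p (3.57 millionths, SE 1.25, limma adjusted p = 0.868). The NF-kappa-B pathway was nominally higher in 8 of 10 genes, with Nfkbib, a relative of Nfkbia, at 0.710 (SE 0.408). Of the genes around mTORC1, on which Ddit4 acts through the TSC complex, 6 of 9 were nominally lower, with Tsc2 at 1.20 (SE 0.658) and Tsc1 at -5.06 (SE 3.005). Relatives of Klf9 and Tsc22d3 were nominally lower in 6 of 9 genes, with Klf6 at -2.64 (SE 1.31).

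No marker of ventricle-lining cells passed the test, but most were nominally higher in DMHF rats. Over all genes, 47.0% were nominally lower, and the direction counts of the marker lists were not tested. All 6 measured ependyma markers of 8 listed were nominally higher, with a mean standardised level from -0.26 to 1.27 SD in DMHF rats and from -1.52 to 0.62 SD in control rats. Of 8 measured choroid plexus markers of 10 listed, 7 were nominally higher and Kcnj13, a potassium channel gene, was nominally lower (-7.66 millionths, SE 3.86). Their mean ran from -0.70 to 1.34 SD in DMHF rats and from -1.35 to 0.57 SD in control rats. Their summed level deviated from the control mean by -175 to 1997 millionths in DMHF rats and by -1010 to 995 in control rats. Levels of the choroid plexus markers ran from 6.47 to 12.78, and 5 of 8 lay above the median level of all probe sets. Ependyma markers were dim, at levels of 6.40 to 7.47, and only 1 of 6 lay above that median. The choroid plexus mean was 0.74, 0.30, -0.29, 1.34 and -0.70 SD in DMHF replicates 1 to 5, against 0.29, 0.57, -0.79, -0.12 and -1.35 SD in control replicates 1 to 5. DMHF replicates 1 and 4, low in all 8 responsive genes, were the highest rats, and control replicate 5, high in all 8, was the lowest, while DMHF replicate 5 and control replicate 4 did not follow that order. With the choroid plexus mean as a covariate the differences were -71.1 millionths for Nfkbia, -403 for Sgk1, -5.71 for Ddit4, -3.06 for Tsc22d3 and -0.83 for Klf9. They were -50.8 for Mt2A, -2.17 for Mt1 and -1.20 for Nr3c2, and turned above 0 for Nr3c1 (0.0778) and Fkbp5 (1.85). With that covariate 10 of the 14 member probe sets were lower, against 12 without it. Endothelial markers, a cell type that expresses several of these genes, were nominally lower in 4 of 5 measured genes, with a mean from -1.06 to 0.29 SD in DMHF rats and from -0.81 to 1.06 SD in control rats. Pituitary markers, at levels of 5.76 to 7.42, were nominally higher in 7 of 7 genes, with a mean from -0.28 to 1.15 SD in DMHF rats and from -1.67 to 0.13 SD in control rats. Astrocyte markers were nominally higher in 4 of 7 and lower in 3. The choroid plexus mean was 0.28 SD in DMHF rats and -0.28 SD in control rats, so a fit with it as covariate cannot fully separate it from the group. In that fit the smallest limma adjusted p of a member gene was 0.898 (Nr3c2). The part of cell makeup in the members' differences was not tested.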

How the data were processed

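The authors deposited one table of log2 expression values per probe set and array, and these were used as deposited; the log base was taken from the range. The submitters' processing notes name R 2.7.2. How background was corrected, arrays normalized and probes summarised is not stated in the labels or file. The 57 control probe sets were left out, which left 31042. Gene names come from the platform annotation in GEO (20826 probe sets with 1 gene, 436 with several, 9780 unnamed here), and all 14 member probe sets matched a gene of the RefSeq table of GRCr8.

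DMHF and control were compared by a moderated linear model (limma 3.58.1, run in R 4.3.3, with lmFit followed by eBayes; two-sided, 10 arrays, no covariate, Benjamini-Hochberg over all probe sets, threshold 0.05). Every adjusted p for a difference is from that fit. Correlations used exact permutation in Python 3.11.15. In simulated data with the real spread of the 31042 probe sets, the fit recovered 12% of probe sets shifted by 2 within-group SD, 52% at 4, 96% at 6 and 98% at 8.

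The members and gene lists were chosen with earlier results of these data known. Named besides the members were up to 3 genes per list with the smallest unadjusted p, and the 5 and 3 genes most alike in pattern. Predicted genes (LOC, RGD) were passed over. Alternatives were a common array median, quantile normalization, only the 15521 brighter probe sets, a trended and robust variance, array weights, the replicate number as a block, the choroid plexus markers as a covariate, 1 probe set per gene, an exact permutation test, the mean of a gene's probe sets, and each array left out in turn.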

Additional observations from a re-analysis of the deposited data

Results flagged for a closer look

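In 3 of 28 groups of 5 rats examined over the 14 probe sets, a single rat stood far from the others, by a gap of more than 0.71 of the group's range, which chance gives in about 5% of groups. Ddit4 in DMHF replicate 3 stood at 18.4 millionths, with the other DMHF rats between -30.0 and -17.6. Mt1 in DMHF replicate 5 stood at 1.80 millionths, with the other DMHF rats between -4.54 and -3.19. A dimmer probe set of Klf9 in control replicate 4 stood at 18.3 millionths, with the other control rats between -7.69 and -0.369.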

How the results depend on the processing

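Of 188 values of single members under the alternatives, 49 had the same difference by construction, since only the test or the probe sets beside them changed. Of the other 139, 126 kept their direction and 13 did not, and none of the 188 passed the test (smallest adjusted p 0.689). Nr3c1 ranged from -0.376 to 0.288 millionths with single arrays left out (above 0 in 6 of 10 cases) and was 0.0778 with the choroid plexus covariate. Fkbp5 ranged from -7.96 to 6.23 with single arrays left out and was 1.85 with that covariate. After quantile normalization Mt1 stood at 40.5 and Nr3c2 at 0, without direction. The mean over the 3 Klf9 probe sets was 0.376 SD (exact permutation p = 0.317). Quantile normalization left 10076 probe sets and 7 of the 14 members that still varied between arrays. It called 13 probe sets, and 5 of those 7 members were lower. With single arrays left out, 0 to 1 probe sets were called, the 1 without DMHF replicate 2, and 10 to 12 of the 14 member probe sets were lower. At an unadjusted p under 0.05, 541 probe sets were listed with a common median and 604 after quantile normalization, against 1700 as reported. The number of correlated pairs was 0 of 15 after quantile normalization and 0 to 7 of 45 with single arrays left out, where fewer pairings are possible: 0 without DMHF replicate 3 or 4 or control replicate 1, 2, 4 or 5, 1 without DMHF replicate 2, 2 without control replicate 3, 3 without DMHF replicate 1 and 7 without DMHF replicate 5. It was 8 with the choroid plexus covariate and 9 with a common median. The cause of these changes was not tested. The labels do not say whether the replicate numbers pair the rats, and these data do not settle it. Correlations of deviations between same-numbered rats were all above 0, from 0.0288 to 0.273. Of the 5 DMHF rats, 3 were most like the control rat of their own number. With the replicate number as a block, 0 probe sets passed and 2217 had an unadjusted limma p under 0.05, against 1700 without it. With that block 12 member probe sets were lower. Mt1 was not among the 15521 brighter probe sets, and Nr3c1, Tsc22d3, Klf9 and Ddit4 had no test after quantile normalization.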
